A study of Mus musculus with 1049 samples.

Results

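The cyclin D and kinase genes of the G1 phase, the inhibitors that act on them, the p53 axis and lamin B1 were followed in fibroblasts of the dermis, sequenced cell by cell, from mice of 3 ages. They are 10 genes, chosen by name from the 51777 genes common to the count tables: Ccnd1, Ccnd3, Cdk6, Cdkn1a, Cdkn1b, Cdkn2a, Cdkn2b, Trp53, Mdm2 and Lmnb1. All 10 were found, and 9 passed the filter on low counts that left 16684 genes for testing. Cdkn2a did not pass it and was not tested.

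The mice were C57Bl/6 of 3 ages, 1.5 or 2.5 days (newborn), 2 months (young) and 18 months (old), without any treatment or engineered allele named in the labels. Skin fibroblasts were sorted singly into plate wells after staining that included the lineage antigens CD45, CD117, EpCam and CD31 and the fibroblast antigen Pdgfra, and full-length cDNA libraries were made with Smart-seq2. The protocol names female littermates for the newborn subpopulations; the sex of the other mice is not given in the sources used here. Cells came from 2 experiments with all 3 ages in each, and every one of the 9 plates also held all 3 ages. After filtering there were 249 newborn, 246 young and 240 old cells.

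A cell is not an independent replicate and the labels name experiments but no mice, so reads were added over the cells of each age and experiment. This gave 6 sums of 119682449 to 195324769 reads, with n = 2 for each age. The p-values below therefore measure differences only against the spread between sums of the same age, which may be technical. That spread was estimated over all ages together and drawn towards that of other genes. Fibroblast identity held in all sums: all 5 fibroblast markers (Col1a1, Col1a2, Dcn, Lum, Pdgfra) were read in each, and every kept cell had a read of at least 1. They summed to 43160 to 52930 CPM (counts scaled to library size) for newborn sums, 162300 to 164100 CPM for young sums and 132500 to 140300 CPM for old sums. Of 10 genes of S phase and mitosis, all were read in both newborn sums, where they summed to 408 and 822 CPM, against at most 51.7 CPM in any adult sum. Cells with at least 3 of these 10 genes, called cycling below, made up 14.6% of newborn cells in experiment 1 and 11.0% in experiment 2 and numbered 0 among adult cells. The part of these marker and gene-number differences in the values below was not tested, except where cycling cells were left out. The median number of genes per cell at an equal depth of 100000 reads was 1799 and 2226 for newborn, 1648 and 2043 for young and 1503.5 and 1700.5 for old cells.

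As background, D-type cyclins bind the kinases Cdk4 and Cdk6 early in G1, and the active pair phosphorylates the retinoblastoma protein so that E2F factors can drive entry into S phase. Inhibitors of the Ink4 family, to which the Ink4a product of Cdkn2a and the Cdkn2b product belong, bind Cdk4 and Cdk6. Cdkn1a (p21) and Cdkn1b (p27) act on a wider range of cyclin and kinase pairs. The transcription factor p53, encoded by Trp53, induces Cdkn1a and its own antagonist Mdm2. Raised Cdkn2a and Cdkn1a and a loss of lamin B1 are widely used marks of senescent cells.

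The deposited counts were per gene, while the inhibitor genes Cdkn1a and Cdkn2a each have more than 1 known start. RefSeq (GRCm38.p6) gives Cdkn1a a pair of starts, and the 250 bases before each are shown with matches to the p53 half-site, which was searched by its consensus on both strands, in capitals. The outer window, chr17:29090729-29090978 on the plus strand, held 2 matches, beginning 73 and 51 bases before the start and not overlapping each other. The inner window, chr17:29093519-29093768 on the plus strand, held 0. Cdkn2a also has a pair of starts, the outer one (chr4:89294620-89294869, minus strand) for the Arf transcript and the inner one (chr4:89282193-89282442, minus strand) for the Ink4a transcript, both of which end in the same shared exons, so counts added per gene cannot tell the transcripts apart. Neither Cdkn2a window held a match.
Cdkn1a outer start: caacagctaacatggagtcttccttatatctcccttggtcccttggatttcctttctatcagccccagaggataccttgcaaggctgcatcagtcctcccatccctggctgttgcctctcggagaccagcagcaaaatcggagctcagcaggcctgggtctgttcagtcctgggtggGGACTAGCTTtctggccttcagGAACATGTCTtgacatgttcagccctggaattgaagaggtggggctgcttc
Cdkn1a inner start: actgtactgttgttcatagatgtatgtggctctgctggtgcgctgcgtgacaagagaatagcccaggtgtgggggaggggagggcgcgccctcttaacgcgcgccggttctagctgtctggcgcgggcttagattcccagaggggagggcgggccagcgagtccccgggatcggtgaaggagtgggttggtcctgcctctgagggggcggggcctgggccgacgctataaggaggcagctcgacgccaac
Cdkn2a outer start: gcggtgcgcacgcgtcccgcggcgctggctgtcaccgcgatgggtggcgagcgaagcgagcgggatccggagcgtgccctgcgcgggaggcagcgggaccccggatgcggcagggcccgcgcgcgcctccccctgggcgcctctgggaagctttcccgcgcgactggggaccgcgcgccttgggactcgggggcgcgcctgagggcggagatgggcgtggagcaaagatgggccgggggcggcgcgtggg
Cdkn2a inner start: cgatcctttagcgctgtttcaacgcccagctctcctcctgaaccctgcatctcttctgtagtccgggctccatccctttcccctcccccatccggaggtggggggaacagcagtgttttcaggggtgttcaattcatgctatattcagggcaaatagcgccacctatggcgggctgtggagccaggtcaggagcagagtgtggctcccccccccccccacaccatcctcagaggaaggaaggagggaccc
Of 32851 start windows of this length in the same RefSeq table, 7.13% held at least 1 such match. Among the other members examined, which did not include Ccnd1 or Lmnb1, Trp53 and Mdm2 had 1 match each in their windows. A match is a likeness of letters, not a binding site, and no binding was measured here.

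Levels of different genes were compared per kilobase of exon (CPM per kb, the mean of the 2 sums of an age). In newborn sums Trp53 (28.6), Ccnd3 (23.2) and Cdkn1a (21.9) stood highest, and these 3 lay within the spread between the 2 Trp53 sums. Ccnd1 (13.6), Mdm2 (12.3), Cdk6 (7.11) and Cdkn1b (5.93) came next, and Lmnb1 (0.957) was last of those read. In young sums Cdkn1a led with 102 CPM per kb, ahead of Trp53 at 19.3, Mdm2 at 13.3 and Cdkn2b at 10.95, while Cdk6 was lowest of those read at 0.556. In old sums the leader was again Cdkn1a, at 133 CPM per kb, ahead of Trp53 at 22.6 and Cdkn2b at 14.0. Lmnb1 stood at 0.575 CPM per kb and Cdkn2a at 0.804 in old sums. The order of Cdkn1a, Trp53 and Ccnd3 differed between the 2 newborn sums, whereas Cdkn1a stood above all other members in every adult sum. Exons of 4 members overlap a gene on the opposite strand in GENCODE M21: Ccnd1 overlaps LTO1 by 1100 bases, Ccnd3 overlaps Bysl by 361, Cdk6 overlaps Gm17590 by 368 and Cdkn1a overlaps AC167363.2 by 273. The strand setting of the counting is not given in the sources used here, so reads in those bases cannot be assigned with certainty.

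**Figure D1:**
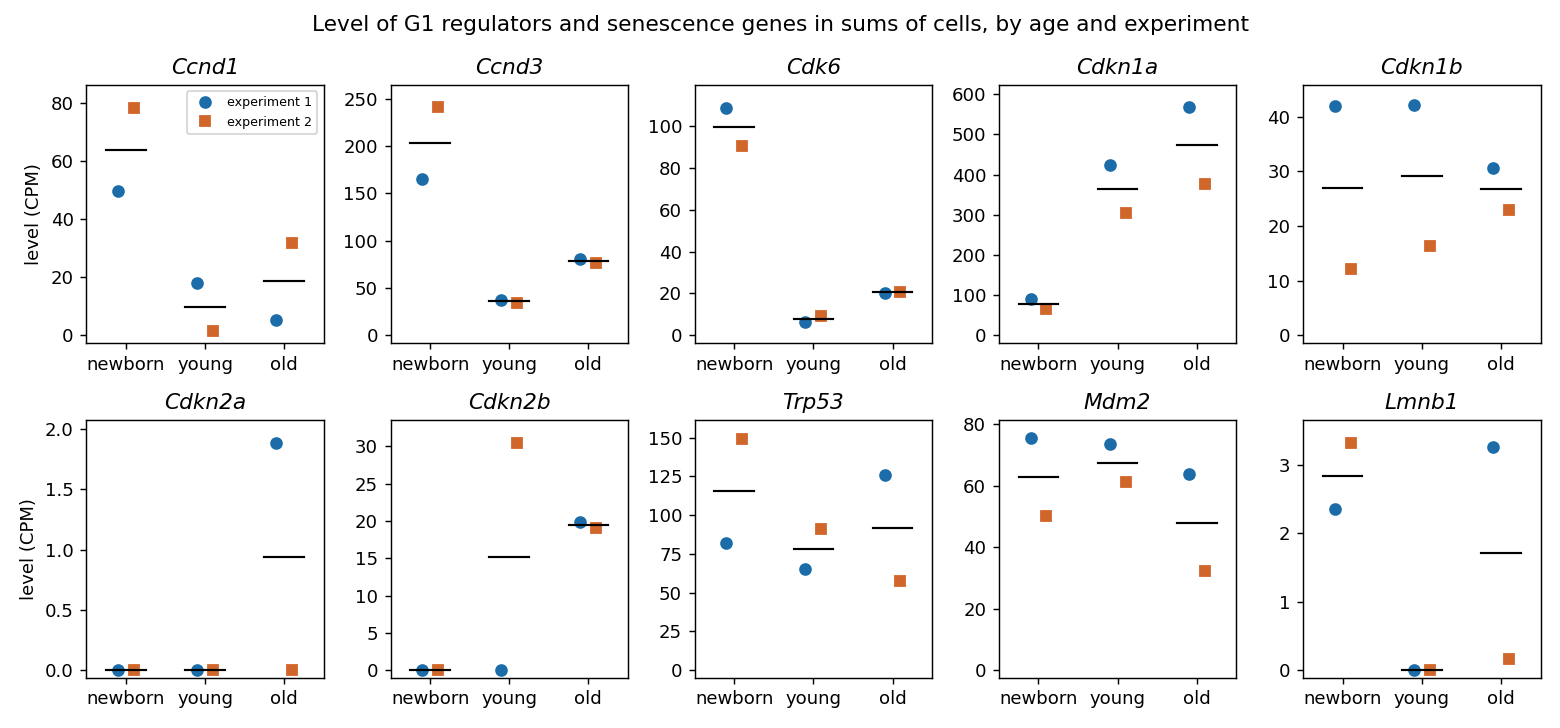
Level of each of the 10 genes (vertical axis, CPM, a separate scale for each gene) in the sums of newborn, young and old cells of experiment 1 (circles) and experiment 2 (squares), with the mean of the 2 sums as a line. Ccnd3 and Cdk6 were highest in both newborn sums and Cdkn1a lowest there, while the experiments parted on Cdkn1b and Ccnd1.

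Among the cyclins and their kinase, Ccnd3 (cyclin D3; ENSMUSG00000034165, chr17:47505051-47599691, plus strand) had 165 and 241 CPM for newborn sums of experiments 1 and 2, 37.6 and 34.3 CPM for young sums and 80.9 and 76.6 CPM for old sums. The 3 ages did not overlap, with young lowest and old between. Cdk6, the kinase that cyclin D activates (ENSMUSG00000040274, chr5:3341485-3531008, plus strand), kept the same order without overlap, at 109 and 90.3 CPM for newborn, 6.47 and 9.08 CPM for young and 20.2 and 20.8 CPM for old sums. Ccnd1 (cyclin D1; ENSMUSG00000070348, chr7:144929931-144939925, minus strand) had 49.5 and 78.1 CPM for newborn, 18.0 and 1.45 CPM for young and 5.28 and 31.9 CPM for old sums. For Ccnd1 both newborn sums lay above the adult ones, and the adult ages overlapped. The share of all genes whose ages lay apart in such ways is not given here. Overlap of sums, here and below, is therefore a description only. A single cell held 50.9% of the Ccnd1 reads of newborn experiment 2.

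Ccnd3 and Cdk6 fell in young against newborn sums by 2.50 ± 0.30 and 3.68 ± 0.41 on the log2 scale (± SE), with adjusted p = 0.0464 and 0.0394 in edgeR (quasi-likelihood test, p-values adjusted by Benjamini-Hochberg over all genes tested). They were the only 2 of the 9 members tested to pass the threshold of 0.05 in this comparison, in which 0.779% of all genes tested passed and 0.0599% passed as lower. Both genes were lower in young than in newborn cells on 9 of 9 plates. Plate counts, here and below, are a description only, since plates of the same experiment may share mice and are not replicates. The call was near the threshold: with experiment as a block, edgeR's adjusted p was 0.117 for Ccnd3 and 0.107 for Cdk6, and 0.15% of all genes passed. DESeq2 called 5 members here, among 14.1% of all genes, and limma on each sum's mean of log2(CPM + 1) over cells called 4, among 19.3%. Leaving out any 1 of the 6 sums also took it away, with edgeR's adjusted p from 0.101 to 0.249 for Ccnd3 and from 0.125 to 0.215 for Cdk6.

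In old against newborn sums the difference of Cdk6 was -2.28 ± 0.38 on the log2 scale (edgeR's adjusted p = 0.0926) and that of Ccnd3 -1.37 ± 0.29 (edgeR's adjusted p = 0.143). Neither passed the threshold. By plate, which is not a replicate, both were lower in old than in newborn cells on 9 of 9. In this comparison 0 of the 9 members passed, against 0.935% of all genes tested; 3 members had an unadjusted p under 0.05, against 15.2% of all genes. DESeq2 called 4 members here, among 17% of all genes, and limma 4, among 26.1%. In old against young sums Ccnd3 was higher by 1.13 ± 0.29 and Cdk6 by 1.398 ± 0.374, with unadjusted p = 0.0100 and 0.0124 and edgeR's adjusted p = 0.906 for both. Ccnd3 was higher in old than in young cells on 8 of 9 plates and Cdk6 on 5 of 9. The Ccnd1 differences came with SEs of 1.37 to 1.44 and edgeR's adjusted p of 0.523 or more, while limma gave adjusted p = 0.0171 for young and 0.0425 for old against newborn sums.

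The share of cells with a read was measured after thinning every cell to 100000 reads, so that depth did not set it. Its exact Clopper-Pearson 95% intervals cover the counting of cells only, and shares were not tested because cells are not replicates. The share of cells with a Ccnd3 read was 34.2% (26.8 to 42.1) and 51.6% (40.9 to 62.3) for newborn cells, 9.15% and 10.6% for young cells and 14.3% and 14.9% for old cells. Without thinning it was 35.4% and 54.9% for newborn, 9.86% and 12.5% for young and 15.9% and 18.4% for old cells. The share with a Cdk6 read was 26.6% and 41.8% for newborn, 2.11% and 5.77% for young and 5.56% and 6.14% for old cells. The intervals of the adult ages overlapped for both genes, and none reached down from the newborn ages to the adult shares. In the cells that did have a Ccnd3 read, the median level was 503.2 and 412 CPM for newborn, 266 and 311 CPM for young and 466 and 421 CPM for old cells. Most of the gap between old and newborn sums of Ccnd3 thus lay in how many cells had a read rather than in the level of those cells.

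The Ccnd1 share was 18.4% and 25.3% for newborn cells and 6.34% and 2.88% for young cells. In old cells its share was 1.59% (2 of 126 cells; 0.193 to 5.62) in experiment 1 and 14.9% (8.93 to 22.8) in experiment 2, so that the 2 experiments differed at this age by more than the counting of cells allows. Each experiment gave 1 sum of each age, so there is no spread between sums within an experiment.

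**Figure D2:**
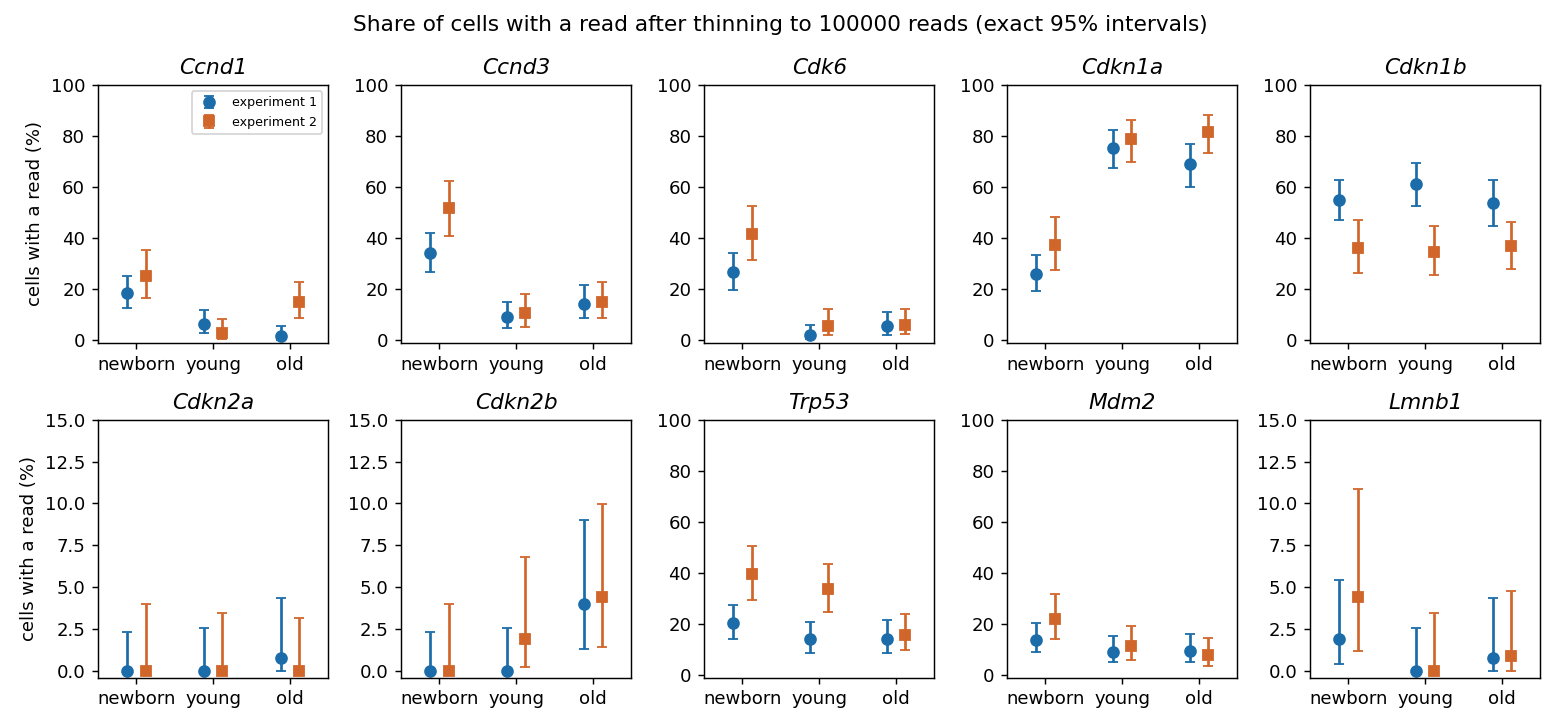
Share of cells with at least 1 read of each gene (vertical axis, percent; 0 to 100 for 7 genes and 0 to 15 for Cdkn2a, Cdkn2b and Lmnb1) after thinning each cell to 100000 reads, by age, for experiment 1 (circles) and experiment 2 (squares). Bars are exact 95% intervals for the counting of cells; the Cdkn1a share was 25.9% and 37.4% for newborn cells and 69.0% or more in adult cells, while Ccnd3 and Cdk6 had their highest shares in newborn cells.

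Newborn cells alone included cycling cells. Without these cells the young against newborn difference was -2.45 for Ccnd3, which no longer passed (edgeR's adjusted p = 0.0761), and -3.79 for Cdk6, which did (edgeR's adjusted p = 0.0363), on the log2 scale. In newborn experiment 1, Ccnd3 was read in 65.2% of 23 cycling cells (42.7 to 83.6) and 28.9% of 135 other cells (21.4 to 37.3). In newborn experiment 2 the shares were 60.0% of 10 cycling cells (26.2 to 87.8) and 50.6% of 81 other cells (39.3 to 61.9), with overlapping intervals. The Cdk6 share was 34.8% in cycling cells (16.4 to 57.3) and 25.2% in other cells (18.1 to 33.4) of experiment 1. In experiment 2 it was 20.0% in cycling cells (2.52 to 55.6) and 44.4% in other cells (33.4 to 55.9), so that the direction differed between the experiments and the intervals overlapped in both. Both genes were thus read in many newborn cells outside the cycling ones. Among newborn cells of experiment 1, Cdk6 was read in 55.2% of the 29 cells with Ccnd1 (35.7 to 73.6) and 20.2% of the 129 without (13.6 to 28.1). In experiment 2 the shares were 43.5% of the 23 cells with Ccnd1 and 41.2% of the 68 without, so the gap of experiment 1 was not seen there.

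Of the 4 inhibitor genes, 3 were tested and 0 passed the threshold in any comparison. Cdkn1a, the p53-induced inhibitor p21 (ENSMUSG00000023067, chr17:29090976-29100727, plus strand), had 89.9 and 65.3 CPM for newborn, 423 and 303 CPM for young and 568 and 378 CPM for old sums. Both newborn sums lay below all adult sums, and the young and old sums overlapped. Its differences were 2.23 ± 0.35 in young against newborn sums and 2.61 ± 0.35 in old against newborn sums on the log2 scale. The adjusted p-values of edgeR's quasi-likelihood test were 0.0928 and 0.0630, so neither passed the threshold. DESeq2 gave adjusted p = 4.5e-08 for young and 7.1e-11 for old against newborn sums, and limma 6.9e-04 and 4.5e-04. With experiment as a block the old against newborn difference passed (edgeR's adjusted p = 0.0449, log2 difference 2.60), among 0.306% of all genes. Thinned cells gave edgeR's adjusted p = 0.0441 for young and 0.028 for old against newborn sums, where 1.79% and 1.98% of all genes passed. Cdkn1a was higher on 9 of 9 plates in young than in newborn cells and on 9 of 9 in old than in newborn cells.

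Between old and young sums the Cdkn1a difference was 0.38 ± 0.33 on the log2 scale (edgeR's adjusted p = 1.00), in the same direction in both experiments and on 8 of 9 plates. The share of cells with a Cdkn1a read was 25.9% and 37.4% for newborn, 75.4% and 78.8% for young and 69.0% and 81.6% for old cells. The share thus had no set order between old and young, being lower in old cells of experiment 1 and higher in old cells of experiment 2. In the cells with a read, the median Cdkn1a level was 251 and 184.5 CPM for newborn, 418 and 243 CPM for young and 559 and 318 CPM for old cells. In newborn experiment 1, Cdkn1a was read in 52.2% of 23 cycling cells (30.6 to 73.2) and 21.5% of 135 other cells (14.9 to 29.4). In newborn experiment 2 the shares were 60.0% of 10 cycling cells (26.2 to 87.8) and 34.6% of 81 other cells (24.3 to 46.0), with overlapping intervals. Shares of Ccnd1, Ccnd3, Trp53, Mdm2 and Lmnb1 were also higher in cycling cells in both experiments. That of Cdkn1b was lower in both, and that of Cdk6 differed in direction. By level (CPM of library totals) Mdm2 was lower in cycling than in other cells, at 18.8 against 103 and 36.2 against 61.5 CPM. Its share intervals overlapped in both experiments. In experiment 2 the levels of Ccnd1 (86.6 against 93.5 CPM) and Ccnd3 (285 against 287.5 CPM) were not higher in cycling cells. Levels of Trp53 and Lmnb1 were higher in both experiments, but the Lmnb1 share of experiment 1 rested on 1 of 23 cycling cells.

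Cdkn1b, the inhibitor p27 (ENSMUSG00000003031, chr6:134920401-134925513, plus strand), was read, at full depth, in 59.0% of newborn, 63.8% of young and 59.2% of old cells. For Cdkn1a those shares were 32.1%, 78.0% and 76.3%. It had 41.9 and 12.1 CPM for newborn, 42.1 and 16.3 CPM for young and 30.6 and 23.0 CPM for old sums. All 3 ages overlapped, and at each age experiment 1 was the higher. The differences were -0.12 in old against young, 0.11 in young against newborn and -0.01 in old against newborn sums, each ± 0.81 (SE), with edgeR's adjusted p of 0.990 or more. One newborn cell held 34.9% of the reads of newborn experiment 1. The share of cells with a Cdkn1b read after thinning was 55.1% and 36.3% for newborn, 61.3% and 34.6% for young and 54.0% and 36.8% for old cells. After thinning it thus parted the experiments and not the ages. At full depth it was 63.3% and 51.6% for newborn, 70.4% and 54.8% for young and 59.5% and 58.8% for old cells. The gap between experiments in old cells thus depended on the thinning. The median level in cells with a read was 38.5 and 14.6 CPM for newborn, 40.3 and 17.0 CPM for young and 33.3 and 14.8 CPM for old cells.

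**Figure D3:**
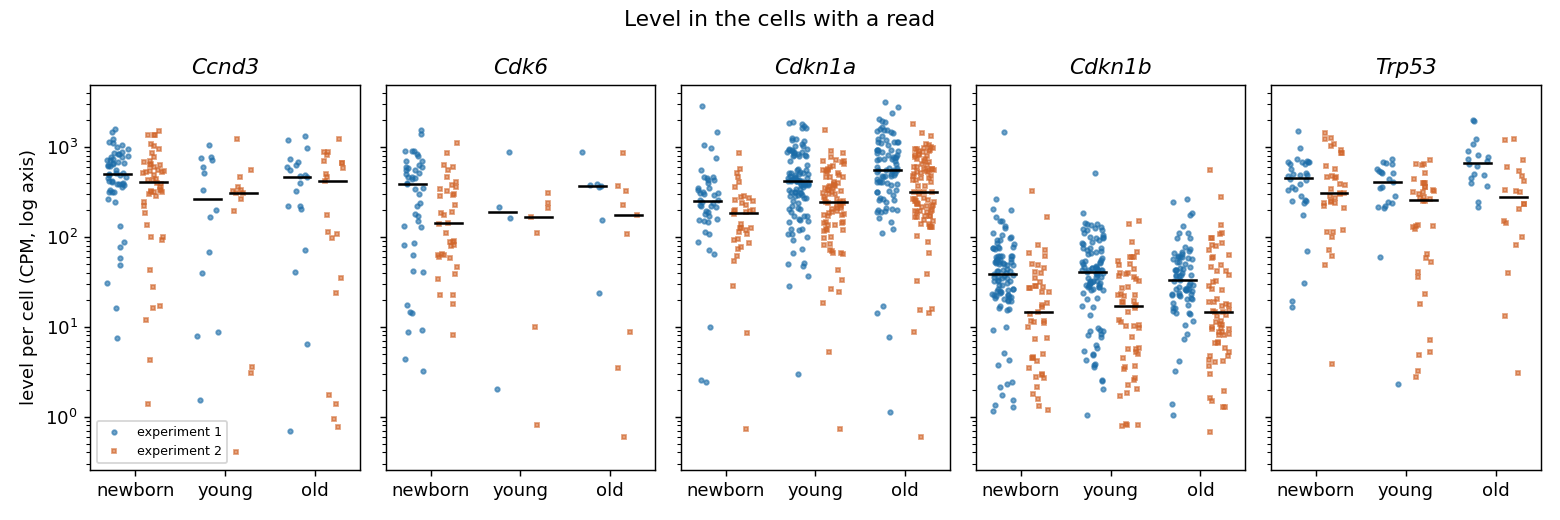
Level in each cell with a read (vertical axis, CPM on a log scale) of Ccnd3, Cdk6, Cdkn1a, Cdkn1b and Trp53, by age and experiment, with the median as a line; cells without a read are not drawn. The Cdkn1b medians of experiment 2, at 14.6 to 17.0 CPM, lie below those of experiment 1 at every age.

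Cdkn2a, which encodes p16 and Arf (ENSMUSG00000044303, chr4:89274471-89294653, minus strand), was read in 1 of 735 cells. That cell was an old cell of experiment 1 with 278 Cdkn2a reads, or 0.794% of 126 cells (0.0201 to 4.34). The sum of old cells of experiment 1 had 1.88 CPM and the other 5 sums had 0. Zero cells of 249 newborn cells allow a share of up to 1.205%, and 0 of 246 young cells up to 1.22%, taking 3 cells as the limit; the upper ends of the exact 95% intervals are 1.47% and 1.49%. The same cell had 1194 reads of Cdkn1a, 0 of Cdkn2b and 0 of the 10 S phase and mitosis genes. A difference of Cdkn2a between ages was not detectable with 1 cell.

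Its neighbour Cdkn2b, encoding p15 (ENSMUSG00000073802, chr4:89306299-89311039, minus strand), was read in 0 of 249 newborn cells, 2 of 246 young cells (0.813%; 0.0986 to 2.91) and 10 of 240 old cells (4.17%; 2.02 to 7.53). The old cells were split evenly, 5 in each experiment, and came from 7 of the 9 plates. Both young cells came from 1 plate of experiment 2, and 1 of them held 81.9% of the young reads. By level the picture differed, with 0 and 0 CPM for newborn, 0 and 30.5 CPM for young and 19.9 and 19.0 CPM for old sums. Old and young sums overlapped, and edgeR's adjusted p was 1.00 for old against young, 0.396 for young against newborn and 0.338 for old against newborn. DESeq2, unlike edgeR, called Cdkn2b in both comparisons with newborn sums, with adjusted p = 2.3e-10 for young and 1.1e-10 for old. In the 10 old cells Cdkn2b stood at 218 to 688 CPM, and 9 of them also had Cdkn1a reads, against 180 of all 240 old cells. Of those 10, 5 had a read of some marker of another cell type. Among all old cells, 56 of 126 in experiment 1 and 53 of 114 in experiment 2 had no such read. The part of such reads was not tested.

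Neither gene of the p53 axis passed the threshold in any comparison. Trp53 (ENSMUSG00000059552, chr11:69580359-69591873, plus strand) had 82.2 and 149 CPM for newborn, 65.2 and 90.9 CPM for young and 126 and 57.2 CPM for old sums, and all 3 ages overlapped. Its differences were 0.23 ± 0.52 in old against young, -0.57 ± 0.52 in young against newborn and -0.34 ± 0.52 in old against newborn sums, with edgeR's adjusted p of 0.760 or more. The share of cells with a Trp53 read was 20.3% and 39.6% for newborn, 14.1% and 33.7% for young and 14.3% and 15.8% for old cells. It was lower in old than in young cells on 8 of 9 plates, whereas the level was lower on 5 of 9. In cells with a read, the median Trp53 level was 457 and 306 CPM for newborn, 413 and 257 CPM for young and 670 and 275 CPM for old cells.

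Mdm2, the ubiquitin ligase that restrains p53 (ENSMUSG00000020184, chr10:117688875-117710758, minus strand), had 75.4 and 50.0 CPM for newborn, 73.6 and 61.3 CPM for young and 63.7 and 32.3 CPM for old sums. The ages overlapped, and the differences were -0.49 ± 0.46 in old against young, 0.11 ± 0.46 in young against newborn and -0.39 ± 0.46 in old against newborn sums, with edgeR's adjusted p of 0.810 or more. Its share was 13.9% and 22.0% for newborn, 9.15% and 11.5% for young and 9.52% and 7.89% for old cells. The newborn sums of Mdm2 thus overlapped the adult ones, unlike those of Cdkn1a, and the difference between the genes was not tested.

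Cells with and without a Cdkn1a read were set side by side for Trp53 within each experiment, without a test. In newborn cells of experiment 1, 29.3% of those with Cdkn1a and 17.1% of those without had a Trp53 read, and in experiment 2 52.9% and 31.6%. In young cells the shares with and without Cdkn1a were 14.0% and 14.3% in experiment 1 and 35.4% and 27.3% in experiment 2. In old cells they were 19.5% and 2.56% (1 of 39 cells) in experiment 1 and 17.2% and 9.52% (2 of 21 cells) in experiment 2. The share was higher with Cdkn1a in both experiments for newborn and old cells but not for young cells, and the exact intervals overlapped in each of these pairs. For Mdm2 they overlapped in each pair as well. Cells were at equal depth but not at an equal number of genes, and the part of this in the shares was not tested.

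**Figure D4:**
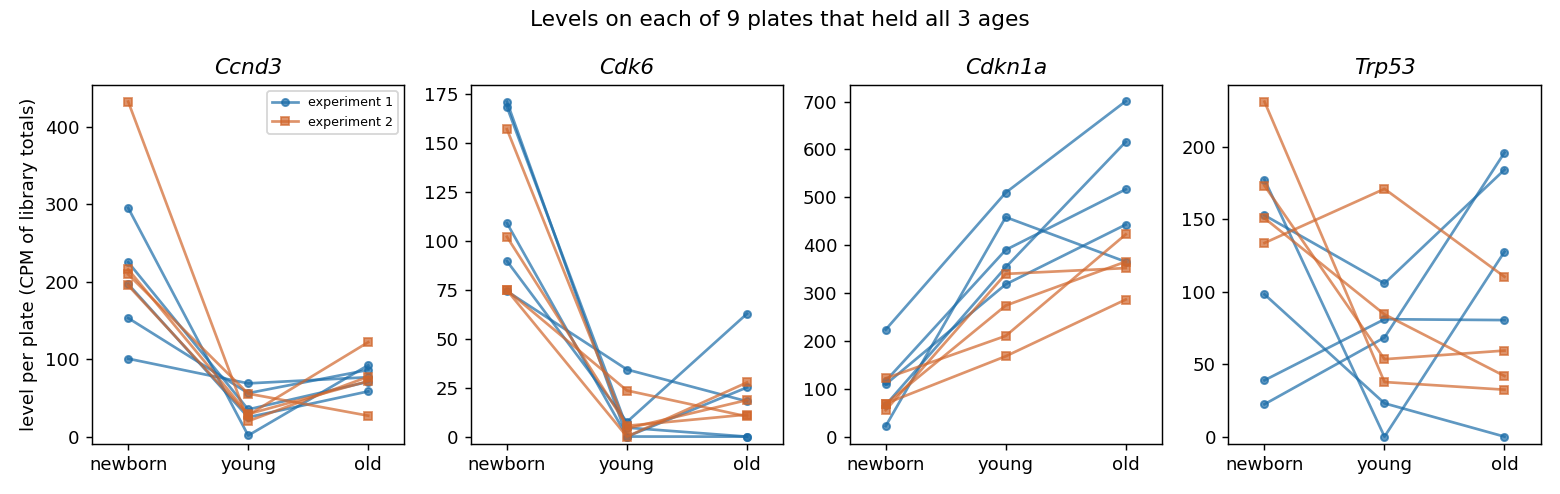
Level of Ccnd3, Cdk6, Cdkn1a and Trp53 (vertical axis, CPM of library totals) in the cells of each age on each of 9 plates, with a line for each plate and the experiments in 2 colours. On every plate Ccnd3 and Cdk6 were lower and Cdkn1a higher in both adult ages than in newborn cells, while Trp53 had no common order.

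Lmnb1, encoding the nuclear lamina protein lamin B1 (ENSMUSG00000024590), was read in 7 of 249 newborn cells (2.81%; 1.14 to 5.71), 0 of 246 young cells and 2 of 240 old cells (0.833%; 0.101 to 2.98). Zero young cells allow a share of up to 1.22% by the limit of 3 cells and 1.49% by the exact interval. The sums had 2.35 and 3.31 CPM for newborn, 0 and 0 CPM for young and 3.25 and 0.156 CPM for old sums, where the last value rests on 28 reads of 1 cell (0.104 to 0.225 CPM by an exact Poisson 95% interval). That interval covers counting error only, and amplified reads of 1 cell are not independent molecules. Old and newborn sums overlapped. Cycling cells held 338 of the 472 reads of newborn experiment 2, but 162 of the 486 reads of newborn experiment 1. Without cycling cells the old against newborn difference was 0.23 on the log2 scale, against -0.73 with them. On the old side of both values, 1 cell of experiment 1 held 94.5% of the reads. Of the 7 newborn cells, 3 had 9 or 10 of the S phase and mitosis genes. The adjusted p of edgeR's test was 0.910 for old against young, and not lower than 0.258 in the comparisons with newborn sums. DESeq2 called it in young against newborn sums (adjusted p = 4.3e-04) and in old against young sums (adjusted p = 0.00254). All of these values rest on reads in 9 of 735 cells.

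Taking the 9 tested members by count in old against young sums, 0 passed in edgeR's test, as did 0 (0%) of all 16684 genes. At an unadjusted p under 0.05 there were 3 (Ccnd3, Cdk6 and Lmnb1), against 4.85% of all genes. DESeq2 called those same 3, with adjusted p of 0.00200, 5.0e-04 and 0.00254, in a setting in which it called 6.28% of all genes, and limma called 0 of them, among 0.115% of all genes. The members' median log2 difference was 0.38 in old against young, -0.57 in young against newborn and -0.39 in old against newborn sums, against 0, -0.07 and -0.08 over all genes tested.

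Few other genes of the same pathways were called in edgeR's test. At an unadjusted p under 0.05, the lists below had 0 to 2 genes each in old against young sums. In young against newborn sums the number was 4 of 9 G1 genes, 1 of 4 inhibitors, 2 of 12 retinoblastoma and E2F genes, 3 of 10 p53 regulators, 6 of 28 p53 targets, 1 of 13 lamina genes and 8 of 15 secreted factors. Of 9 further G1 cyclins and kinases, 0 passed in any comparison. The most abundant were Cdk4 with 351 CPM for newborn, 153 CPM for young and 177 CPM for old sums on average, the cyclin gene Ccnd2 with 365, 125 and 90.0 CPM, and Cdk7, of the kinase-activating complex, with 107, 78.7 and 94.9 CPM. In young against newborn sums 7 of the 9 had a negative difference (median -1.54), and 13.3% of all genes had an unadjusted p under 0.05. Of 4 other inhibitors 0 passed; Cdkn1c (p57) had 105 CPM for newborn, 25.3 CPM for young and 8.98 CPM for old sums, with a log2 difference of -3.55 ± 0.61 in old against newborn sums (edgeR's adjusted p = 0.102). Cdkn2d (p19) averaged 85.9, 39.1 and 60.1 CPM and Cdkn2c (p18) 29.0, 25.7 and 32.4 CPM for newborn, young and old sums.

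Of 12 tested retinoblastoma and E2F genes 0 passed, the most abundant being Tfdp1, an E2F partner, with 73.8, 15.5 and 36.8 CPM for newborn, young and old sums, Rbl2 with 16.1, 18.1 and 23.4 CPM and E2f5 with 27.1, 11.9 and 13.6 CPM. Of 10 tested p53 regulators 0 passed; Mdm4, the relative of Mdm2, averaged 122 CPM for newborn, 31.6 CPM for young and 31.5 CPM for old sums, ahead of Usp7 and Atr. Of 28 p53 target genes 0 passed in any comparison. Btg2, an antiproliferative factor, was at 353, 373 and 309 CPM, Ephx1, an epoxide hydrolase, had 66.1, 310 and 254 CPM, and the kinase gene Plk2 148.5, 30.5 and 76.2 CPM for newborn, young and old sums. The median log2 difference of the target list was 0.06 in young against newborn and 0.34 in old against newborn sums.

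Of 13 lamina and envelope genes 0 passed. Lmna, encoding the A-type lamins, averaged 734 CPM for newborn, 347 CPM for young and 355 CPM for old sums, and Banf1 and Syne1 were next. Of 15 tested secreted factors linked with senescence, 1 passed as higher in young and 2 as higher in old against newborn sums, where 0.719% and 0.797% of all genes tested passed as higher, and 0 of 15 passed in old against young sums. The chemokine gene Ccl8 had 0.0291 and 0 CPM for newborn, 226 and 194 CPM for young and 369 and 135 CPM for old sums (edgeR's adjusted p = 0.0312 for young and 0.0274 for old against newborn). Hgf, the hepatocyte growth factor gene, had 0 and 0 CPM for newborn, 4.66 and 6.79 CPM for young and 38.1 and 27.8 CPM for old sums (edgeR's adjusted p = 0.0405 in old against newborn). The most abundant on average were Ccl7 with 201, 1209 and 1012 CPM, Ccl2 with 724, 669 and 427 CPM and Mmp3 with 3.92, 643 and 713 CPM for newborn, young and old sums.

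Over the 6 sums, the genes whose log2(CPM + 1) was most like that of Cdkn1a were Ahnak (Pearson's r = 0.999), Med13l (0.997) and Pla2g7 (0.996). Over these 6 points, 293 of 16683 genes had r over 0.95 with Cdkn1a. For Cdkn1b the 3 most alike were Wdr83 (0.997), Psmb6 (0.989) and Wdyhv1 (0.986), and 31 genes exceeded 0.95. For Ccnd3 they were Coro7 (0.995), Wdfy1 (0.994) and Mars2 (0.992), with 56 genes over 0.95. These are descriptions across sums that share plates and experiments.

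Some markers of other cell types moved with age. Of 4 immune markers, Ptprc had 0 reads in all 6 sums, and the list, in adult sums mostly Csf1r, summed to 1.48 and 0 CPM for newborn, 160 and 37.7 CPM for young and 10.5 and 12.7 CPM for old sums. Of 3 endothelial markers, Cdh5 had 0 reads in all sums, and the list, mostly Plvap, summed to 23.5 and 5.65 CPM for newborn, 76.7 and 41.3 CPM for young and 67.4 and 49.5 CPM for old sums. Of 4 keratinocyte markers, Epcam and Krt5 had 0 reads in all adult sums, and the list, there mostly Krt10, summed to 33.3 and 17.1 CPM for newborn, 43.6 and 47.3 CPM for young and 70.9 and 57.1 CPM for old sums. The pericyte and smooth muscle list, in which Rgs5 had 0 reads in all 6 sums, had 1 to 3 of its 4 markers read in each sum and totalled 14.7 and 97.6 CPM for newborn, 4.70 and 11.4 CPM for young and 4.62 and 15.9 CPM for old sums. The part of these reads in the members' values was not tested for single cells. In the cells with 0 reads of all 25 markers of other cell types (99 and 56 newborn, 55 and 29 young, 56 and 53 old cells), 0 members passed in any comparison. The share of all genes that passed among these cells is not given here. These cells were also fewer, so that count is not read as a result about the members. In these cells the young against newborn log2 difference was -2.35 for Ccnd3 (edgeR's adjusted p = 0.543) and 2.15 for Cdkn1a (edgeR's adjusted p = 0.102), close in size to those of all cells. Cdk6 had 0 and 36 reads left in the young sums, against 18326 and 7324 in the newborn sums, and lost its call (edgeR's adjusted p = 0.347). Cdkn1b and Mdm2 changed sign, to -0.62 and -0.82.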

How the data were processed

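Smart-seq2 libraries of single dermal fibroblasts were measured, 1 cell per well. The deposited values were raw read counts per gene and well, in 11 plate tables, and the submitters' processing notes name the build GRCm38 and the tool FastQC; aligner, counter, strandedness and the handling of shared reads: not given in the sources used here. Of count values from 1 to 20, 61.0% to 64.9% were even, so a fragment may have been counted as a pair of reads, and counting intervals are then too narrow.

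Of 1049 columns, 5 held no values. A pair of plates of experiment 1 were each taken to have been sequenced in repeat runs, by the correlation of wells at the same position. Its median r between their plate tables was 0.994 (threshold 0.9), against at most 0.433 for other pairs of tables. The 183 shared wells of these runs were added, leaving 861 wells on 9 plates. Cells were kept with at least 50000 reads, 1000 genes and at most 25% mitochondrial reads: 735 of 861, with 246349 to 4331293 reads each. Gene symbols and positions came from GENCODE M21 by identifier (51633 of 51777 matched). Start windows came from RefSeq, and the member windows did not include Ccnd1 or Lmnb1.

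Counts were summed for each age and experiment and tested with edgeR 4.0.16 (TMM, filterByExpr, robust quasi-likelihood test, age as the only term, all 6 sums in 1 fit, Benjamini-Hochberg over 16684 genes, threshold 0.05) in R 4.3.3. CPM were scaled by TMM, except per plate and per cell, where library totals were used. Alternatives used experiment as a block, DESeq2 1.42.0, limma 3.58.1 on log2(CPM + 1), other scalings and filters, thinned cells and sums left out. Counts were also simulated with changes of a single size put into the old sums, and only old against young was examined. With the spread estimated here the edgeR fit called few of the genes that had been changed, and with a small spread nearly all. A gene that missed the threshold is therefore not shown to be unchanged. The simulation did not cover the comparisons with newborn sums or other sizes of change. The experiment labels mark a shared batch and so pair the sums; deviations of sums of the same experiment correlated weakly, at 0.0387 for old with young, 0.0266 for young with newborn and 0.0192 for old with newborn. The members, the pathway lists and the rule for naming genes (all members, every listed gene that passed, otherwise the 3 most abundant of a list, and the 3 genes most like each of the 3 members read in most cells) were chosen with earlier results of these data known. Sums with 0 reads allow up to 3 reads, or 0.0145 to 0.0225 CPM. This floor covers the counting of reads only and not the sampling of cells. Reads of the rare members lay in few cells: the 1 cell with Cdkn2a held 278 reads, or 1.88 CPM of its sum. A few missed cells could thus hold far more than the floor.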

Additional observations from a re-analysis of the deposited data

How the results depend on the processing

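Of the log2 differences of the members under other settings, 373 kept their direction and their side of the threshold, 23 passed only there, 17 no longer passed and 33 changed sign. In young against newborn sums, where 2 members passed, 0 passed with experiment as a block, 5 with DESeq2, 4 with limma, 3 in thinned cells, 1 without cycling cells, 0 with any 1 sum left out and 0 without cells with a read of another cell type's markers, a setting added after seeing the data. In old against newborn sums, where 0 passed, 1 passed with experiment as a block, 4 with DESeq2, 1 without a filter on low counts, 2 among genes read in 10% of cells of 1 age, 1 in thinned cells and 4 with limma. In old against young sums 3 passed with DESeq2 and 0 with each of the other settings. DESeq2 called 14.1% of all genes in young against newborn sums, limma 19.3% and edgeR in thinned cells 1.79%, against 0.779% in edgeR's main test and 0.15% with the block. In old against newborn sums these shares were 17%, 26.1% and 1.98%, against 0.935% and 0.306%. In old against young sums DESeq2 called 6.28% and limma 0.115%. For the other settings the share of all genes is not given here, so those counts are not read as results about the members. The cause of the differences between settings was not tested.

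Sign changes were confined to Ccnd1, Cdkn1b, Cdkn2b, Trp53, Mdm2 and Lmnb1, and the cause was not tested. In old against young sums the log2 difference of Cdkn1b became 0.068 with the block and 0.36 without cells with other markers; that of Cdkn2b became -1.02 and that of Mdm2 0.75 without those cells, and that of Trp53 -0.54 with limma. In young against newborn sums Cdkn1b became -0.31 and Mdm2 -0.32 with library totals only, a scaling that moved the median of all genes by -0.42, Mdm2 -0.14 in thinned cells and -0.54 with limma, Cdkn1b -0.032 and Mdm2 -0.053 without cycling cells, and Cdkn1b -0.62 and Mdm2 -0.82 without cells with other markers. In old against newborn sums, where library totals moved that median by -0.36, Cdkn1b became 0.26 with the block, 0.0297 with genes read in 10% of cells, 0.17 in thinned cells and 0.087 with limma, and Lmnb1 0.23 without cycling cells.

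With 1 sum left out, the log2 difference in old against young sums ranged from -0.65 to 0.72 for Cdkn1b, -0.65 to 14.65 for Cdkn2b, -0.47 to 0.69 for Trp53 and -0.88 to 3.69 for Ccnd1. In young against newborn sums it ranged from -0.73 to 1.27 for Cdkn1b and -0.16 to 0.43 for Mdm2. In old against newborn sums it ranged from -0.65 to 1.15 for Cdkn1b, -1.01 to 0.15 for Trp53, -0.95 to 0.022 for Mdm2 and -4.17 to 0.20 for Lmnb1. The share of cells moved by more than its interval in 7 settings, all of them for Cdkn1b. Cdkn2a, Cdkn2b and Lmnb1 were read in 1, 12 and 9 of 735 cells, and thinning to 100000 reads lost none of these cells, so the number of cells with a read and not depth sets the precision of their shares.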

Other observations

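The 126 wells left out by the filters (7 newborn, 41 young and 78 old) held few reads of the members. Cdkn1a was read in 0 of the newborn, 2 of the young and 6 of the old wells. Cdkn2b was read in 0 newborn, 1 young (10 reads) and 1 old well (2 reads), and Cdkn2a, Cdk6 and Lmnb1 in 0 wells of each age. Mdm2 had 1052 reads in 2 of the old wells and Ccnd3 193 reads in 1 of the newborn wells.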
